A study of Homo sapiens with 3 samples.

Results

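The 46 genes described here encode the thick and thin filaments of the sarcomere, the contractile unit of striated muscle, and the proteins that measure, cap, assemble and turn over these filaments. They were chosen by symbol, and where a gene had several probe sets, the brightest on average (log2 scale, 3 arrays) stood for it. Of the 46 genes, 44 had a probe set named with 1 gene, out of 19775 genes in all, and TNNT2 and TPM3 were not analysed here. A level limit was used under which 59.8% to 60.3% of the probe sets of each array lay. Of these 44 genes, 16 reached the limit on at least 1 of the 3 arrays, and the other 28, called dim, are counted apart. The highest intensity of TNNT3 and MYBPC2, 153 and 149.8, lay just inside the limit, and that of MYL3 and TNNC2, 131 each, just outside it. Where 3 intensities are listed for a gene, they stand in the order siCont, siPF and siB7-H3.

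Rh-30 is an established cell line of alveolar rhabdomyosarcoma (ARMS) that carries the PAX3-FOXO1 fusion gene. Labelled cRNA from Rh-30 was hybridized to Affymetrix U133 Plus 2.0 arrays, 3 in number, 1 for cells transfected with control siRNA (siCont), 1 for siRNA against PAX3-FOXO1 (siPF) and 1 for siRNA against B7-H3 (siB7-H3), each at 5 nM with RNA taken after 24 h. All cells were grown in the same serum-containing medium and all were transfected, and no untransfected array was used here. No condition had a second array, so that every difference below lies between 2 arrays, no test between conditions was possible, and Rh-30 stands for ARMS as 1 cell line.

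In a sarcomere, myosin heavy chains with their light chains form the thick filament, and actin, tropomyosin and the troponins form the thin filament, on which calcium binding to troponin C moves the inhibitory troponin I away from its block. Most of these proteins exist as embryonic, slow, fast and cardiac isoforms encoded by separate genes, and developing or regenerating muscle switches from embryonic and cardiac forms to adult fast or slow forms. Rhabdomyosarcoma cells express muscle genes but do not complete the formation of contractile fibres.

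The siPF duplex targets the fusion junction. FOXO1, the 3' part of the fusion, went from 678 in siCont to 249 in siPF, and CD276, which encodes B7-H3, from 1486 in siCont to 362 in siB7-H3. In siPF CD276 was at 1381, a log2 difference of -0.11 to siCont. PAX3, the 5' part of the fusion, had 381, 329 and 398, a log2 difference of -0.21 in siPF. Of 10 ARMS markers, 8 reached the limit on at least 1 array, with siCont intensities of MYOD1 11471, MYOG 605, DES 2776, MYF5 415, FGFR4 6854, NOS1 257, CHRNA1 6939 and CHRNG 85.3, whereas TFAP2B and CDH3 reached at most 35.5 and 5.61 on any array. Of 11 measured markers of other lineages, PECAM1 at 699 in siCont was the 1 gene that reached the limit.

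A window of 250 bases before the transcription start is shown for the sarcomere genes with the largest siPF difference among those at or over the limit that had an entry in the RefSeq promoter table, and for the paralog LMOD2 of the first of them, since E-boxes bound by MYOD1 and myogenin and MEF2 boxes are the classic control letters of such genes. MYBPC2, TNNI2, MYL4 and TNNI1, which had larger differences than some of those shown, and DES had no entry. Capitals mark the E-box CANNTG, the M-CAT element CATTCC, the TATA element TATAAA, the MEF2 box and the CArG box on either strand, and every CAGCTG is also a CANNTG. The coordinates are those of GRCh38.p14, and all sequences run in the direction of the gene and end at the last base before the start.
LMOD3 (chr3:69122596-69122845, reverse strand): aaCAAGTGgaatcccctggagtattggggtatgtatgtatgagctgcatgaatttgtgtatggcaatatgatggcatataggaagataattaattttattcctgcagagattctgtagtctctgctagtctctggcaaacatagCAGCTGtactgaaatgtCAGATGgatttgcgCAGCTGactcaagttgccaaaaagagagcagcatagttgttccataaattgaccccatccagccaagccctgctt
KLHL41 (chr2:169509452-169509701, forward strand): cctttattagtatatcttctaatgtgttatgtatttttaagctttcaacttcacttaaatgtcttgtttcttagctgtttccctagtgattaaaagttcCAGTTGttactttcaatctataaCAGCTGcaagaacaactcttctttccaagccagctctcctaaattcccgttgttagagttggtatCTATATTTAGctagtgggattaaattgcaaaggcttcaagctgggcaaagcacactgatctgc
MYL1 upstream start (chr2:210315175-210315424, reverse strand): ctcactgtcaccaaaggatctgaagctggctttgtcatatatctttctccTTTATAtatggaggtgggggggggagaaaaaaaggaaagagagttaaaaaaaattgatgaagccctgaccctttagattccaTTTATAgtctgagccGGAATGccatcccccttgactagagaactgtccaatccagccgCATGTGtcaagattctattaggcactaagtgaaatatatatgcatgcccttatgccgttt
MYL1 downstream start (chr2:210303616-210303865, reverse strand): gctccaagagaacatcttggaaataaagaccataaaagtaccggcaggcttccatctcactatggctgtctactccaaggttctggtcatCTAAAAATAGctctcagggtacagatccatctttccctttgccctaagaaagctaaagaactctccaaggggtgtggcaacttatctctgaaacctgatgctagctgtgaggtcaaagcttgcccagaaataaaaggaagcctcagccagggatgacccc
NEB (chr2:151734477-151734726, reverse strand): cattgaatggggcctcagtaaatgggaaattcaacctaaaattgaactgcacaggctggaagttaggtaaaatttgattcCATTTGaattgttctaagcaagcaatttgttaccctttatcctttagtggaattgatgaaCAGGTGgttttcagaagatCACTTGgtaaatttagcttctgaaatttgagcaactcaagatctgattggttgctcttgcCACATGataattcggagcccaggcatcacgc
TMOD1 upstream start (chr9:97500930-97501179, forward strand): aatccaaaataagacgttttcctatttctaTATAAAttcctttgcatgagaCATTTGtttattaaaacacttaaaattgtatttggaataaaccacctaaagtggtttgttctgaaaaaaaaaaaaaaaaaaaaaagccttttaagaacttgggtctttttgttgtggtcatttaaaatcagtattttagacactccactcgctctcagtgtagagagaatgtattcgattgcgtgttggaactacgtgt
ACTC1 upstream start (chr15:34795550-34795799, reverse strand): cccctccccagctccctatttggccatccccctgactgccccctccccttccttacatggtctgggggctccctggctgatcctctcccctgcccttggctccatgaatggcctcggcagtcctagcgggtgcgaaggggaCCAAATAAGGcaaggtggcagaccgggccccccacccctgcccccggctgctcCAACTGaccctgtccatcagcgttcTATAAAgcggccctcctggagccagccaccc
LMOD2 (chr7:123655616-123655865, forward strand): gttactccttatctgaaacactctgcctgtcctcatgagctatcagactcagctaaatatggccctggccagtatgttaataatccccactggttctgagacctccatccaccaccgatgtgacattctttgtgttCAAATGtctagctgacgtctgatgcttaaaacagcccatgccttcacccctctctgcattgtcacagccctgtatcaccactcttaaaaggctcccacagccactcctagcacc
The KLHL41 window held 2 E-boxes, of which CAGCTG began 128 bases before the start, and a MEF2 box that began at 63 bases. In the LMOD3 window 4 E-boxes were found and the CAGCTG form stood at 106 and 75 bases, whereas the NEB window held 4 E-boxes and no CAGCTG. The 2 starts of MYL1, from which the long and the short form of the fast light chain are made, differed in that the upstream window held 1 E-box and the downstream window a MEF2 box at 160 bases and no E-box. The upstream ACTC1 window held a CArG box, the letters read by serum response factor, at 109 bases, and TATAAA at 31 bases. TMOD1 had 1 E-box and TATAAA before its upstream start and none of the motifs before the other start. The LMOD2 window held 1 E-box, at 114 bases, and no CAGCTG, unlike that of LMOD3.
The promoter table held 31 of the 46 genes with 40 windows, of 35116 windows in all. A MEF2 box was present in 20% of the 40 windows (8 windows: KLHL41, KLHL40, MYL1, TTN, CAPN3, MYOM3, MYH8 and MYH1), against 1.75% of all windows. CAGCTG was present in 35% against 14.0%, any CANNTG in 72.5% against 61.8%, TATAAA in 32.5% against 10.7%, CATTCC in 25% against 11.9%, and a CArG box in 7.5% against 1.16%. Of the measured genes in the table, 2 of 10 genes at or over the limit and 6 of 19 dim genes held a MEF2 box. These matches are letters in a window and show no binding.

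**Figure D1:**
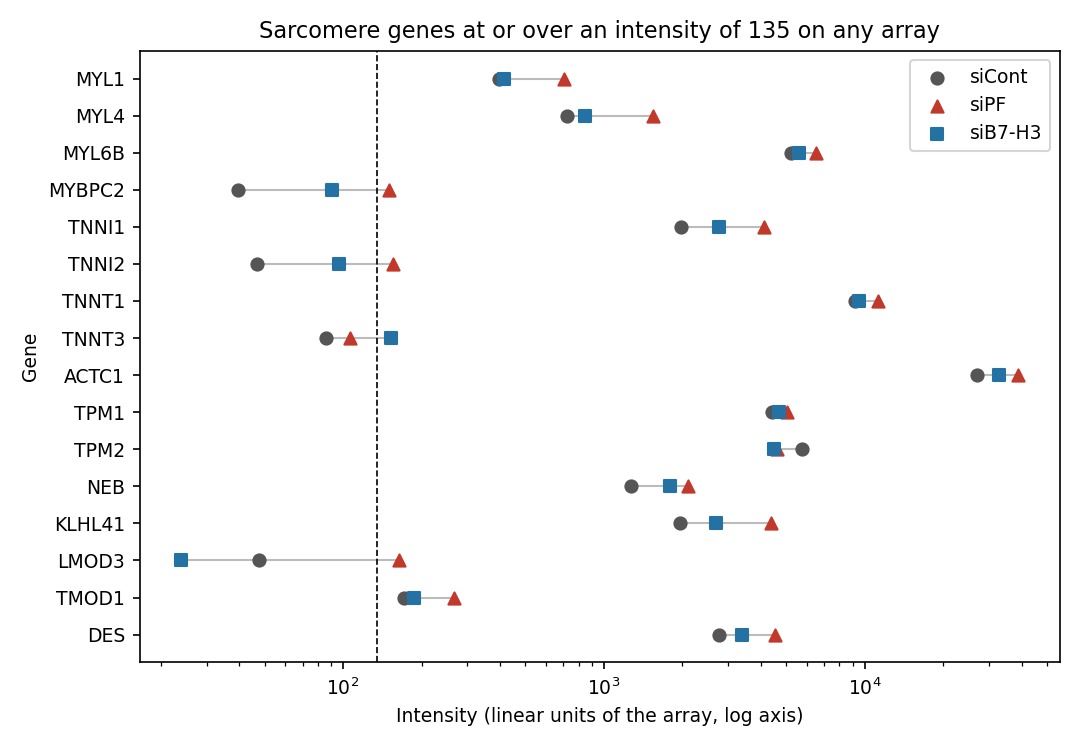
Intensity (horizontal axis, log scale) of the 16 sarcomere genes that reached the level limit (dashed line) on at least 1 array, with 1 point each for siCont, siPF and siB7-H3 and a grey line over their range. The siPF point lies highest for all genes but TNNT3 and TPM2, and MYBPC2, TNNI2 and LMOD3 pass the limit in siPF alone. Intensities of different genes come from different probes and are not to be compared.

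The sarcomere genes that were well measured were mostly higher on the siPF array and, by less, on the siB7-H3 array. For 12 genes the geometric mean of the 3 intensities was at or over the limit, a choice that does not depend on which array was high. In siPF, 11 of these 12 genes were above siCont, where 52.7% of all 10178 genes of that level were, and the median log2 difference was 0.67, against 0.02 for all genes of that level. In siB7-H3 also 11 of the 12 were above siCont, where 53.1% of all such genes were, with a median of 0.18 against 0.02. At least 2-fold higher were 3 of the 12 in siPF (KLHL41, MYL4 and TNNI1), where the share of all such genes was 1.08%, and 0 in siB7-H3, where it was 0.619%. At least 2-fold lower were 0 of the 12 in either, where 0.806% and 0.599% of such genes were. The 0.18 in siB7-H3 was near the 0.14 of the 11 measured housekeeping genes, 8 of which were above siCont. The 108 genes with a geometric mean of at least 20000 were at 0.23, and the non-sarcomeric paralogs described below at -0.05. The siB7-H3 median thus does not set the sarcomere genes apart from housekeeping genes. In siPF the housekeeping genes were at 0.19 and the 108 genes at 0.26, both under 0.67. Both comparisons use the same siCont array. The values of the 12 sarcomere genes depended on the scaling of the arrays. When the arrays were centred on the added control transcripts, the log2 differences of KLHL41, MYL4 and TNNI1 in siPF were 0.9995, 0.92 and 0.90, short of 2-fold, and MYL1, MYL4, MYL6B, TNNT1, TPM1 and TMOD1 were below siCont in siB7-H3. The 4 other genes, MYBPC2, TNNI2, LMOD3 and TNNT3, reached the limit only on the array where they were highest, so that counts over all 16 genes (15 above siCont in siPF and 14 in siB7-H3, where 52.6% and 52.8% of genes at or over the limit on any array were) partly follow from the choice.
For want of replicates, each difference is set beside the SD of the same difference over the 500 genes nearest to it in mean level. In siPF, 10 of the 12 genes were above siCont by more than this SD, as were 13.2% of all genes with a geometric mean over the limit, and TPM2 was below by more than it. In siB7-H3, 5 of the 12 genes were above by more than the SD (TNNI1, NEB, KLHL41, DES and ACTC1), as were 14.4% of all such genes, and TPM2 was again below. The median of the near genes was not subtracted in these counts. Less that median, the difference of ACTC1 in siB7-H3 was 0.17, short of its SD of 0.18. The counts also depended on the scaling. With the arrays centred on the added control transcripts, all 5 differences named for siB7-H3 were short of their SD. In siPF those of MYL6B, TNNT1 and TMOD1 were then short of it too. In these bulk samples a change in the number of expressing cells and a change in RNA per cell cannot be told apart.

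**Figure D2:**
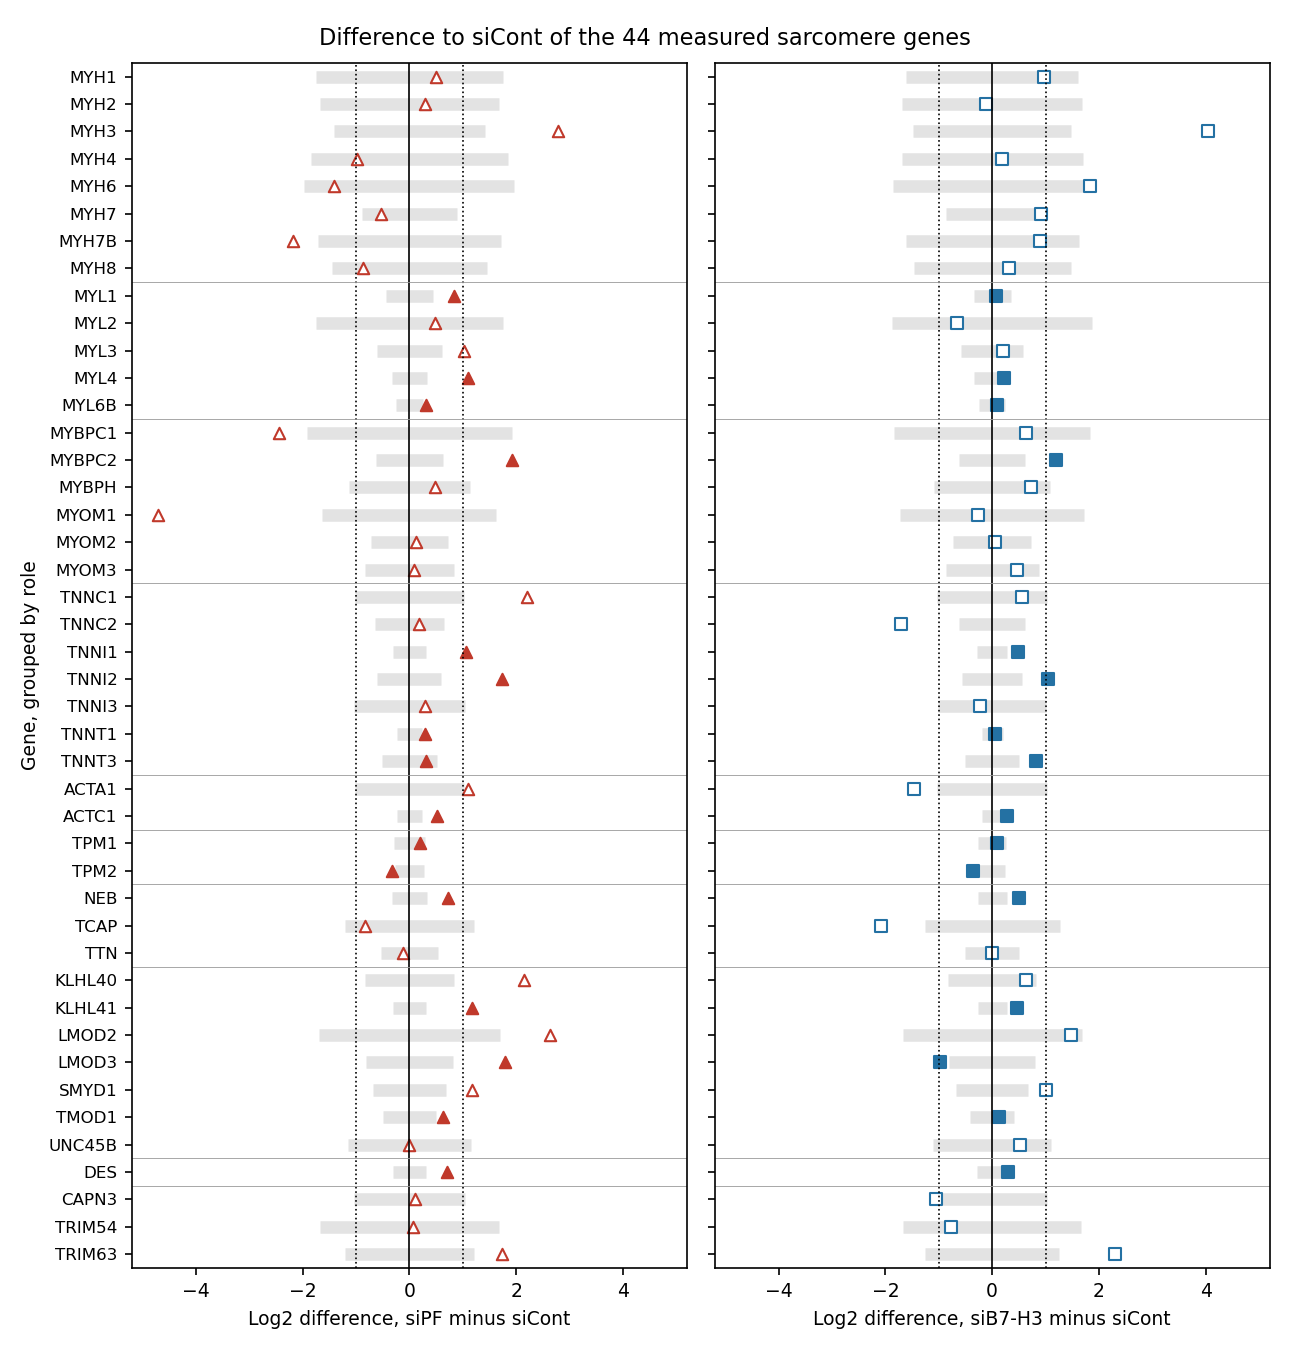
Log2 difference to siCont of the 44 measured sarcomere genes in siPF (left) and siB7-H3 (right), grouped by role, with filled symbols for the 16 genes at or over the limit on any array and open symbols for the 28 dim genes. Grey bars show plus and minus the SD of that difference over the 500 genes nearest in level, centred on 0, and dotted lines mark 2-fold. Filled symbols lie right of 0 except TPM2 in both panels and LMOD3 in siB7-H3, and most dim genes lie within wide grey bars.

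Among the thick filament genes the light chains carried the measurable signal, and all 8 myosin heavy chains were dim. MYL4, the embryonic and atrial essential light chain, had an intensity of 724, 1542 and 845. Its level stood apart in siPF alone, with a log2 difference of 1.09 (SD of near genes 0.33) against 0.22 (0.34) in siB7-H3. MYL1, the essential light chain of fast fibres, behaved alike, at 395, 705 and 414, with log2 differences of 0.84 (0.44) and 0.07 (0.34). MYL6B, an essential light chain of slow muscle that other tissues also make, had 5232, 6501 and 5597, with log2 differences of 0.31 (0.26) in siPF and 0.10 (0.24) in siB7-H3. The light chains of slow and ventricular muscle MYL2 and MYL3 were dim. MYL3 had 64.3, 131 and 73.7, and MYL2 reached at most 18.8 on any array.
MYBPC2, the fast form of myosin-binding protein C, which ties myosin to the sarcomere backbone, had 39.7, 149.8 and 90.8. Only the siPF value reached the limit. The log2 differences were 1.92 (SD of near genes 0.63) in siPF and 1.19 (0.62) in siB7-H3, but 0.15 and 0 with values under the limit raised to it. The slow form MYBPC1 was dim, at 13.9, 2.57 and 21.5. The M band genes MYOM1, MYOM2 and MYOM3, whose products link thick filaments at their middle, and MYBPH reached at most 69.3 on any array. MYOM1 had 48.2 in siCont and 40.1 in siB7-H3 but 1.85 in siPF, a log2 difference of -4.70 between dim values.
The heavy chain genes ranged up to 87.4 over all arrays. MYH3, the embryonic heavy chain, had 5.29, 36.3 and 87.4, and MYH8, the perinatal chain, had 28.3, 15.5 and 35.4. For the slow chain MYH7 the values were 41.2, 28.6 and 77.8 and for the cardiac chain MYH6, its neighbour in the genome, 6.42, 2.42 and 23.0. MYH7B had 22, 4.83 and 40.8. The fast chains MYH1, MYH2 and MYH4 reached at most 20.7 on any array. In siB7-H3, 7 of the 8 heavy chains were above siCont, where 47.9% of all dim genes were, and in siPF 3 were, where 50.3% were. The count in siB7-H3 depended on the probe set, since a second MYH8 probe set had 28.5, 5.59 and 2.67 and a second MYH7B probe set 4.27, 1.91 and 4.02. Above siCont by more than the SD of near genes were MYH3 on both knockdown arrays and MYH7 in siB7-H3, as were 14.6% of all dim genes in siPF and 13.2% in siB7-H3. MYH7B was below by more than the SD in siPF, as were 14.4% of all dim genes.

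Among the thin filament genes that reached the limit, all but TNNT3 and TPM2 were highest in siPF, and TPM2 was below siCont on both knockdown arrays at its brightest probe set. TNNI1, the slow form of the inhibitory subunit, which embryonic muscle also makes, had 1970.5, 4121 and 2763. Both knockdown arrays lay above siCont, by log2 differences of 1.06 (SD of near genes 0.32) and 0.49 (0.27). TNNI2, the fast form, had 46.9, 156 and 96.8, of which only the siPF intensity reached the limit. Its log2 differences were 1.74 (0.60) and 1.05 (0.56), but 0.21 and 0 with values under the limit raised to it. The cardiac form TNNI3 was dim, at 35.5, 43.4 and 30.2.
TNNT1, the slow troponin T, which anchors the complex to tropomyosin, had 9179.6, 11268 and 9479.9, so that siCont and siB7-H3 were nearly level. TNNT3, the fast form, had 85.8, 106 and 153, the 1 gene among the 16 that was highest in siB7-H3. Another TNNT3 probe set gave 81.1, 10.5 and 63.1, hence below siCont on both knockdown arrays. The calcium-binding subunits were dim. TNNC1, the slow and cardiac form, had 19.2, 88.2 and 28.5, and TNNC2, the fast form, had 115, 131 and 35.3.
ACTC1, the cardiac actin that is also the main actin of embryonic skeletal muscle, had 26987, 38707 and 32753. The log2 differences were 0.52 (SD of near genes 0.23) and 0.28 (0.18). The 108 genes with a geometric mean of at least 20000 were shifted by a median of 0.26 (siPF) and 0.23 (siB7-H3), so that the brightest genes in general were higher on both knockdown arrays, and with quantile normalization the differences of ACTC1 were 0.23 and 0.06. ACTA1, the actin of adult skeletal muscle, was dim, at 39.9, 85.4 and 14.5.
TPM1 had 4407, 5036 and 4711, within the SD of near genes in both comparisons. TPM2, a tropomyosin shared by slow and fast fibres, was the 1 gene of the 12 below siCont, at 5762, 4611 and 4510.0, with log2 differences of -0.32 (0.28) and -0.35 (0.25). In siPF, both other TPM2 probe sets that reached the limit were above siCont.

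Of the giant ruler proteins, NEB, the nebulin gene, whose product runs along the thin filament, had 1275, 2104 and 1799. Both knockdown arrays were above siCont, by log2 differences of 0.72 (SD of near genes 0.32) and 0.50 (0.27). TTN, the titin gene, whose product spans from Z-disc to M band, had 116, 107 and 116 at its brightest probe set, and all 6 TTN probe sets were under the limit. TCAP, which caps titin at the Z-disc, was dim at 55.2, 31.2 and 13.0.
Among the assembly factors, KLHL41, a kelch protein that stabilizes nebulin, had 1953, 4381 and 2680.5, with log2 differences of 1.17 (SD of near genes 0.31) and 0.46 (0.27). Its relative KLHL40, which stabilizes nebulin and leiomodin 3, was dim but ordered in the same way, at 25.2, 112 and 39.2. LMOD3, the leiomodin that nucleates thin filaments in skeletal muscle, had 47.5, 163 and 24.0, of which the siCont and siB7-H3 values were under the limit. TMOD1, a cap of the thin filament's slow-growing end, had 171, 265 and 188. LMOD2, the cardiac leiomodin, had 6.83, 42.6 and 19.0, and SMYD1, a methyltransferase that assists myosin folding, 42.1, 95.2 and 84.5. UNC45B, the myosin chaperone, differed little, at 27.8, 27.6 and 39.7.
DES, the muscle intermediate filament that holds sarcomeres in register, had 2776, 4533 and 3398, with log2 differences of 0.71 (0.31) and 0.29 (0.28). The protease gene CAPN3 and the ubiquitin ligase genes TRIM63 and TRIM54 reached at most 55.6 on any array. TRIM63, which marks myosin for breakdown in wasting muscle, had 11.2, 37.3 and 55.6.

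**Figure D3:**
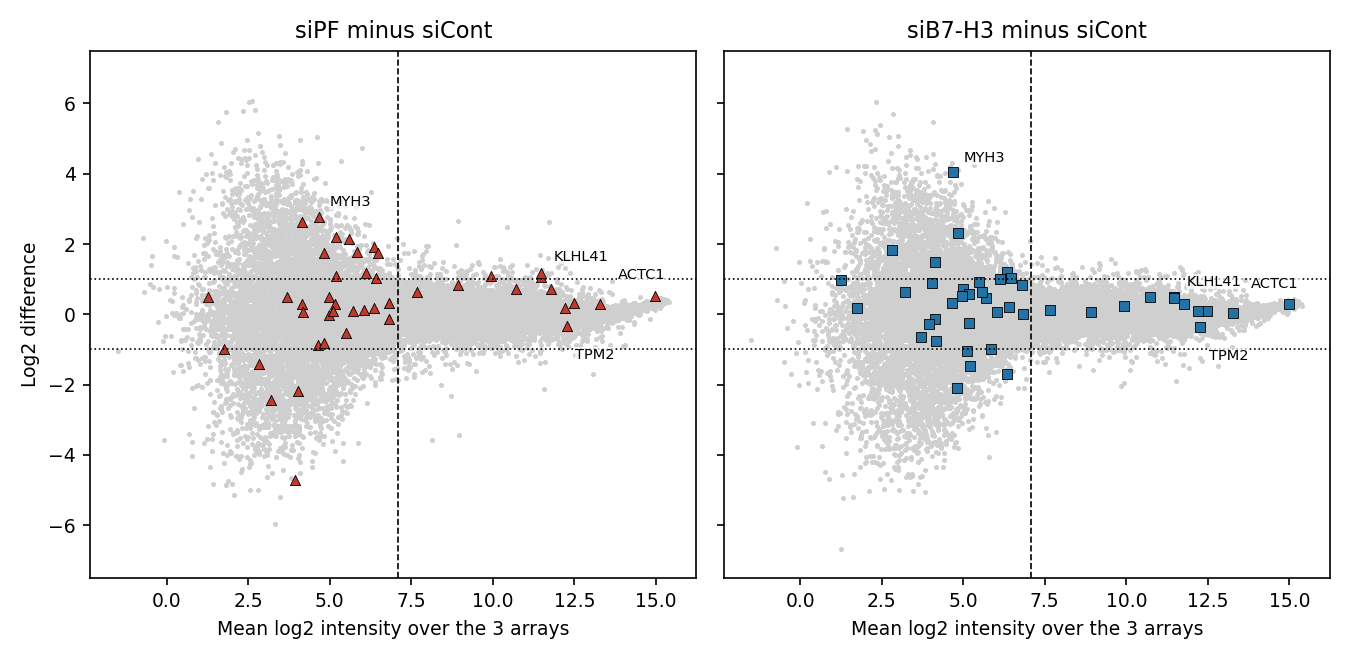
Log2 difference to siCont (vertical axis) against mean log2 intensity over the 3 arrays (horizontal axis) for all 19775 genes (grey) and the 44 measured sarcomere genes (coloured), in siPF (left) and siB7-H3 (right). The dashed line marks the level limit and dotted lines 2-fold. Right of the dashed line the grey cloud is narrow and 11 of 12 coloured points lie above 0 in each panel, fewer in siB7-H3 when arrays are centred on the added control transcripts, whereas left of it the cloud is several log2 units wide.

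By isoform class, fast and slow genes with a geometric mean over the limit were few. Of 10 fast genes 5 reached the limit on at least 1 array, MYL1, MYBPC2, TNNI2, TNNT3 and TPM1, but MYBPC2, TNNI2 and TNNT3 did so only on the array where they were highest. The other 2, MYL1 and TPM1, were above siCont on both knockdown arrays. So were 52.7% of all genes with a geometric mean over the limit in siPF and 53.1% in siB7-H3. The log2 differences of MYL1 and TPM1 in siB7-H3 were 0.07 and 0.10, less than the SD of near genes (0.34 and 0.26). Of 10 measured slow genes 3 reached the limit, TNNI1, TNNT1 and MYL6B, and these too were above siCont on both arrays, TNNI1 by most. TNNT1 and MYL6B differed by 0.05 and 0.10 in siB7-H3, also less than the SD of near genes (0.20 and 0.24). When the arrays were centred on the added control transcripts, MYL1, TPM1, TNNT1 and MYL6B were below siCont in siB7-H3. MYL4 was the 1 gene of 3 embryonic and perinatal genes, and ACTC1 the 1 gene of 3 measured cardiac genes, to reach the limit. The classes follow general knowledge, and several genes belong to more than 1, such as MYL4 and ACTC1, which both heart and embryonic skeletal muscle express.
Compared directly, siPF was above siB7-H3 for all 12 genes with a geometric mean over the limit, where 50.8% of all genes of that level were, and the median log2 difference was 0.33 against 0.00. The differences ranged from 0.03 for TPM2 to 0.87 for MYL4, followed by 0.77 for MYL1, 0.71 for KLHL41 and 0.58 for TNNI1, and 8 of the 12 exceeded the SD of near genes, as did 12% of all such genes. No gene of the 12 was 2-fold apart between the knockdown arrays, where 0.629% of all such genes were at least 2-fold higher in siPF. This comparison reuses arrays of both others.

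The 28 dim genes are set against the 9174 dim genes of the array, of which a large share passed 2-fold in either direction. In siPF, 18 of the 28 were above siCont, where 50.3% of all dim genes were, 8 were at least 2-fold higher, where 19.3% were, and 4 at least 2-fold lower, where 18.9% were. In siB7-H3, 19 were above siCont, where 47.9% were, 5 at least 2-fold higher, where 17.9% were, and 4 at least 2-fold lower, where 19.4% were. The 8 genes past 2-fold higher in siPF were MYH3, MYL3, TNNC1, ACTA1, KLHL40, LMOD2, SMYD1 and TRIM63, and the 5 in siB7-H3 were MYH3, MYH6, LMOD2, SMYD1 and TRIM63. Their siCont intensities ran from 5.29 to 64.3, and no detection calls were used here, so whether these transcripts were present in siCont was not determined.

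Genes with several probe sets allowed a check within each array. Of the 44 genes 15 had at least 2 probe sets, and 5 of them, KLHL41, MYL4, TMOD1, TPM1 and TPM2, had other probe sets that reached the limit, 11 in all. In siPF all 11 other probe sets were above siCont and in siB7-H3 9 were. Most of the 11 belong to MYL4 and TPM1. No share of all such probe sets is given here, so these counts alone do not set the 5 genes apart. Those of MYL4 gave log2 differences of 1.23, 1.45 and 0.35 in siPF and 0.25, 0.11 and 0.16 in siB7-H3. The other KLHL41 probe set gave 0.88 and 0.42, short of 2-fold in siPF, and that of TMOD1 0.64 and 0.27. The 4 other TPM1 probe sets gave 0.38 to 0.61 in siPF, more than the 0.19 of the brightest, and -0.01 to 0.35 in siB7-H3. For TPM2 the other probe sets went from 864 in siCont to 941 in siPF and 845 in siB7-H3, and from 121 to 169.8 and 149, so that the direction of TPM2 in siPF depended on the probe set. Probe sets of a gene share the same RNA and array and are not replicates, and all 4 MYL4 probe sets carry the ending that Affymetrix gives to probes that can bind other transcripts. LMOD3, for which 1 probe set reached the limit, had 10.3, 47.9 and 21.0 at a dim second probe set, which was above siCont in siB7-H3 where the first was below.

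**Figure D4:**
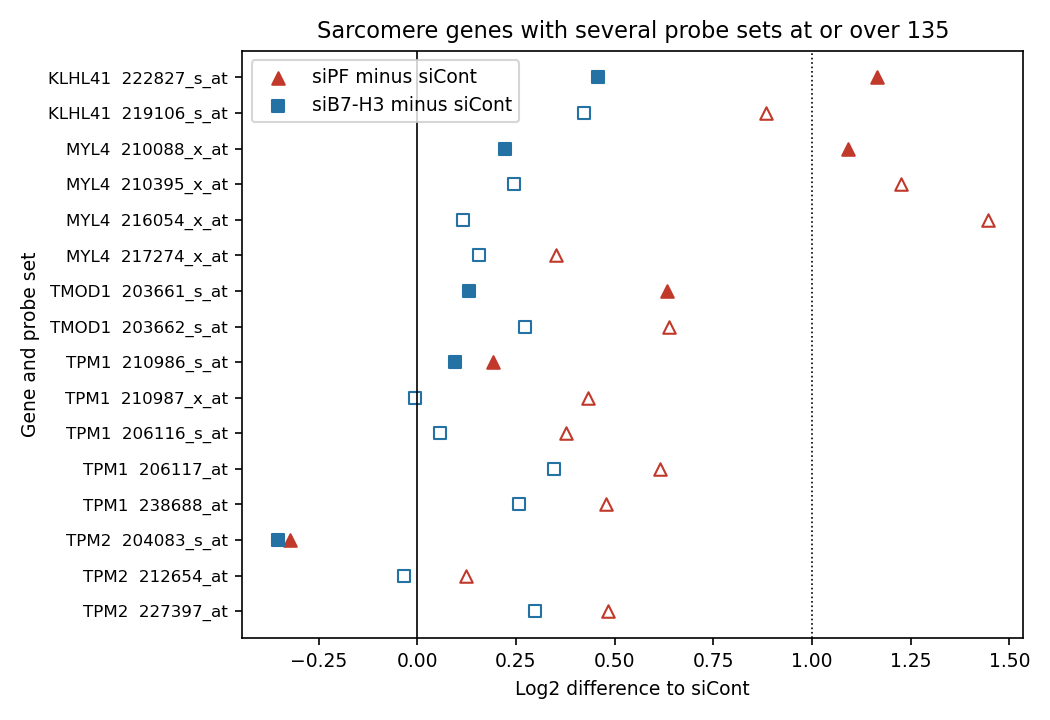
Log2 difference to siCont in siPF (triangles) and siB7-H3 (squares) for each probe set at or over the limit of the 5 sarcomere genes with several such probe sets, filled for the probe set that represents the gene. In siPF all but the filled TPM2 symbol lie right of 0, and the symbols of MYL4 spread from 0.35 to 1.45.

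The non-sarcomeric members of the same families lay about as often below siCont as above it. Of 18 non-muscle and smooth muscle paralogs, such as the non-muscle heavy chains MYH9 and MYH10, the light chains MYL6 and MYL12A, the capping protein gene TMOD3 and the smooth muscle actin gene ACTG2, 17 were measured and 12 had a geometric mean over the limit. Above siCont were 5 of these 12 genes in siPF and 5 in siB7-H3, their median log2 differences were -0.10 and -0.05, and 0 were past 2-fold. MYH9 had 2207, 2303 and 1952, and TMOD3 had 2594, 1779 and 2331, in contrast to the higher values of TMOD1 in siPF. Of 30 other sarcomere genes, mostly of the Z-disc, 24 were measured and 8 had a geometric mean over the limit. Both knockdown arrays were above siCont for 6 of these 8 genes each, with medians of 0.28 and 0.13, and XIRP1, an actin-binding repeat protein, was the 1 gene past 2-fold, at 115, 378 and 293. The 11 measured housekeeping genes, all over the limit, were above siCont in 11 of 11 cases in siPF and in 8 of 11 in siB7-H3, and had median differences of 0.19 (siPF) and 0.14 (siB7-H3), with 0 past 2-fold.
Of 17 myogenic regulators, 15 were measured and 13 had a geometric mean over the limit, of which 10 were above siCont in siPF and 10 in siB7-H3. MYOG, the gene of myogenin, which drives terminal differentiation, had 605, 3386 and 1269, with log2 differences of 2.48 (SD of near genes 0.31) and 1.07 (0.29). TEAD1, a factor that reads M-CAT elements, had 3165, 7122 and 6417, past 2-fold on both knockdown arrays. TEAD4, of the same family, differed little, at 2212, 2494 and 2348. MEF2C, which reads MEF2 boxes, had 1687, 2834 and 2101, with a log2 difference of 0.75 in siPF. The related MEF2A and MEF2D did not follow it. MEF2A had 1686, 1874 and 1872, a log2 difference of 0.15 in siPF. MEF2D was below siCont on both knockdown arrays, at 335, 259 and 278. MYMX, the fusion peptide of myoblasts, had 4528, 8518 and 6006. MYOD1 had 11471, 8688 and 13046 and MYF5 415, 213 and 342, both below siCont in siPF. MRTFB, a cofactor of serum response factor, was the 1 regulator of these 13 past 2-fold lower, at 1398, 1401 and 694. Whether any of these levels acts on the sarcomere genes was not tested.

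**Figure D5:**
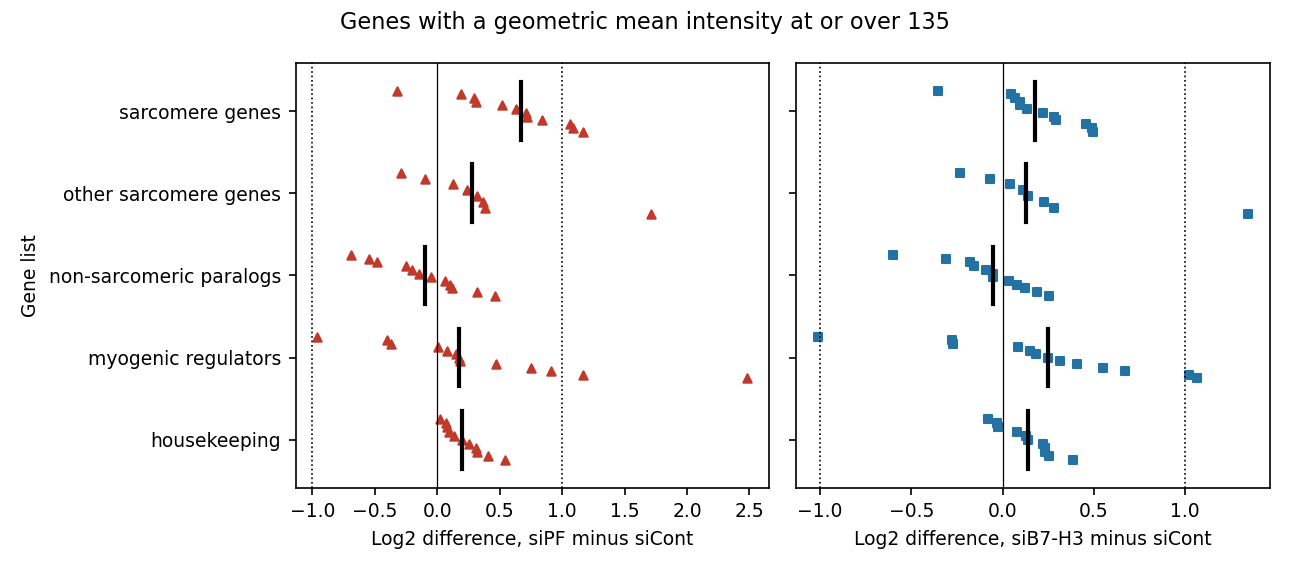
Log2 difference to siCont in siPF (left) and siB7-H3 (right) for genes with a geometric mean intensity over the level limit in 5 gene lists, with 1 point per gene, spread vertically for view, and a black bar at each median. The median of the 12 sarcomere genes is 0.67 in siPF and 0.18 in siB7-H3, and that of the 12 non-sarcomeric paralogs -0.10 and -0.05.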

How the data were processed

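Biotin-labelled cRNA of the 3 Rh-30 samples was measured on U133 Plus 2.0 arrays. As deposited, the values were linear intensities that the authors obtained with Expression Console 1.4.1. How probes were summarized and to which target arrays were scaled is not given in the sources used here, but after 2% of the probe sets were trimmed from each end, each array averaged 499.9. Probe sets (54675, of which 62 are controls) were named by the platform annotation, 41091 of them with 1 gene, and those named with several genes or none were left out. The deposited intensities were converted to log2 without a floor, and siCont was subtracted. A gene was counted past 2-fold at a log2 difference of 1. No test was made, since each condition had 1 array, whose number limits the precision. The 46 genes, the other lists and the comparisons were chosen with earlier results of these data known. All 44 measured genes are named, and of the other 6 lists the ARMS markers and genes past 2-fold that reached the level limit. Chosen after their values were seen were PECAM1, MEF2A, MEF2C, MEF2D, TEAD4, MYMX and 6 paralogs. Of genes with several starts, 1 or 2 windows are printed. Alternatives covered the probe set, normalization, floor and level limit. Python 3.11.15, numpy 2.4.6, pandas 2.3.3 and matplotlib 3.10.9 were used, after a run of the same code on simulated data. Promoter windows came from RefSeq (GRCh38.p14).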

Additional observations from a re-analysis of the deposited data

Results flagged for a closer look

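For 5 sarcomere genes the siPF and siB7-H3 arrays lay on opposite sides of siCont and at least 4-fold apart. Of all 19775 genes 4.99% were so placed. Of the 28 dim genes 4 were, where 10.6% of all dim genes were. The other gene, LMOD3, reached the level limit only in siPF, and its geometric mean of 57.1 was under the limit. Among all genes that reached the limit on any array the share was 0.179%, but most of these were brighter, so that it is no like measure for LMOD3. With 1 array per condition the difference was not tested. The log2 difference of siPF to siB7-H3 was 2.77 for LMOD3, which reached the level limit in siPF, 2.56 for ACTA1, -3.24 for MYH6, -3.08 for MYH7B and -3.07 for MYBPC1, and the last 4 genes reached at most 85.4 on any array. For LMOD3 and MYH7B the pattern did not hold on all probe sets. A second LMOD3 probe set was above siCont on both knockdown arrays (2.21 and 1.02), and a second MYH7B probe set below it on both (-1.16 and -0.085).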

How the results depend on the processing

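Centring on the 45 probe sets of added bacterial control transcripts, with median log2 differences of 0.20 (siPF) and 0.25 (siB7-H3), moved the median of all genes to -0.15 and -0.24. With this centring, 15 of the 16 genes were above siCont in siPF, with 3 past 2-fold higher. In siB7-H3, 8 were above siCont, with 0 past 2-fold higher and 1 lower. The 3 were MYBPC2, TNNI2 and LMOD3, which reached the level limit only in siPF. Shares of all genes for these counts are not given here, so the counts alone do not set the 16 genes apart. MYL1 (-0.18), MYL4 (-0.021), MYL6B (-0.15), TNNT1 (-0.20), TPM1 (-0.15) and TMOD1 (-0.11) were then below siCont in siB7-H3. Without probe sets ending in _x_at or _s_at, 9 genes reached the level limit, of which 9 (siPF) and 7 (siB7-H3) were above siCont. For these counts too no share of all genes is given here. In this setting TPM2 was at 0.12 in siPF and TNNT3 at -2.95 and, for siB7-H3, -0.36. Taking the median over probe sets TPM2 was at 0.30 and 0.13, TNNT3 at -1.32 in siPF and LMOD3 at 0.16 in siB7-H3. Single other probe sets turned TPM2 (0.12 and 0.48 in siPF, 0.30 in siB7-H3) and TPM1 (-0.0068 in siB7-H3). Past 2-fold higher in siPF were 6 of the 16 genes, of which MYBPC2, TNNI2 and LMOD3 reached the limit only on that array. The count was 3 with a floor at the limit, with a limit of 200 and with a limit on the geometric mean. The last was chosen after the data were seen, and 1.08% of all genes over it were past 2-fold higher. In siB7-H3 the count was 2, MYBPC2 and TNNI2, and 0 under each of these, where 0.619% of all genes with a geometric mean over the limit were. For the counts of 6 and 2 no share of all genes is given here. Past 2-fold lower in siB7-H3 was 1 gene, not 0, with a limit of 100, namely TNNC2 (-1.71). At the usual limit, with centring on genes at or over it on all arrays, it was a different gene, LMOD3 (-1.01). The cause of these moves was not tested. Intensities under the level limit limit what can be said of the 28 dim genes. No paired analysis was possible because each condition had 1 array, and no array could be left out.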
